A study of Mus musculus with 15 samples.

Results

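Lung fibroblasts were compared between mice that carried metastases of MDA-MB-231 cells (MDA) and mice that carried metastases of the MDA-LM2 derivative, with the stage of metastasis as a covariate. The comparison used 12 of the 15 arrays of the series, chosen by the cancer line named in their labels: 6 MDA-LM2 arrays against 6 MDA arrays. At each of 2 stages there were 3 arrays per line, micrometastatic at week 1 and macrometastatic at week 3 after injection of the cells into the tail vein. The other 3 arrays came from age-matched healthy lungs and are shown beside the results. All mice were NSG females (NOD.Cg-Prkdc scid Il2rg tm1Wjl/SzJ) aged 6 to 8 weeks, a strain that lacks T, B and NK cells, so the fibroblasts were read in lungs without lymphocytes. MDA-MB-231 is a human breast cancer line, MDA-LM2 was selected from it for growth in the lung, and both carried a luciferase and fluorescent reporter by which mice of similar signal were picked. Each line stands for 1 cell line, so a difference between lines is a difference between these 2 lines. Each array held RNA from 1 to 3 mice, sorted as CD45-, CD11b-, CD31- and EPCAM-negative cells positive for CD140a or CD140b, the receptors encoded by Pdgfra and Pdgfrb.

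Lung mesenchyme holds several neighbouring cell types that share these receptors. Alveolar fibroblasts line the air sacs, adventitial fibroblasts surround vessels and airways, pericytes wrap capillaries, and smooth muscle cells and myofibroblasts carry the actin, calponin and myosin proteins of the contractile apparatus. Contractile genes are driven by serum response factor with its coactivator myocardin, which bind the CArG box, whereas the Notch receptor Notch3 and its targets of the Hey family are known for their role in mural cells. Genes that define fibroblasts were at high levels on every array. The summed intensity of 12 fibroblast identity genes lay between 109329 and 117686 on the 12 metastasis arrays and between 117969 and 121288 on the healthy arrays.

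Values are log2 intensities of 18194 genes, 1 probe set per gene, and a difference is MDA-LM2 minus MDA on that scale with its standard error (SE). Genes were tested with limma, two-sided, and were called at a Benjamini-Hochberg adjusted p under 0.05 over all genes. Of 5 RNA quality measures, the 3' minus 5' difference of Gapdh probe sets differed most between lines. It was 1.37, 1.37 and 1.44 in MDA micro and 1.18, 1.24 and 1.19 in MDA-LM2 micro, and 1.35, 1.43 and 1.03 in MDA macro and 1.01, 1.05 and 1.05 in MDA-LM2 macro. The mean of the 2 stage differences was -0.21 (exact permutation of the line within stage, two-sided p = 0.015, adjusted p = 0.075 over 5 measures). The lines did not overlap at the micro stage, and MDA macro replicate 3 lay among the MDA-LM2 macro arrays. The same measure for Actb and the array medians differed by -0.003 and -0.001. Summed mesothelial markers were higher in MDA-LM2 at the macro stage (16869 to 20325 against 7774 to 13742) and overlapped at the micro stage (3774 to 4342 against 3301 to 3874). Cartilage and airway mesenchyme markers were higher in MDA-LM2 without overlap at both stages (1545 to 2083 against 1235 to 1287 at the micro and 1833 to 2119 against 1693 to 1753 at the macro stage). Endothelial markers did not overlap at the micro stage (6330 to 6660 against 5139 to 6110). Neutrophil markers (1610 to 2353 against 1435 to 1537) and Schwann and neural markers (3776 to 5186 against 1963 to 3334) did not overlap at the macro stage. Macrophage and monocyte markers overlapped at both stages. The part of RNA quality or of such cells in the results below was not tested, except that Gapdh was also entered as a covariate. In bulk samples, fewer cells of a type and less RNA per cell cannot be told apart.

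Over both stages, 9 of 18194 genes (0.0495%) differed between lines, 7 higher and 2 lower in MDA-LM2. The higher genes were Itih4, Cnn1, Pdlim4, Hp, Cpe, Plce1 and H2-Aa, and the lower genes were Scn3a and Atf3. The differences ranged from 1.59-fold to 4.01-fold in size. At an unadjusted p under 0.05 there were 1937 genes, and the 9 called genes lay just below the threshold (adjusted p from 0.046 to 0.048). A model that gave each of the 4 metastasis groups its own mean, chosen after the data were seen, called 105 genes (80 higher, 25 lower), among them all of these 9. Leaving out 1 array ended all calls for 10 of the 12 arrays. Without MDA macro replicate 1 or 2 there were 7 calls, of which 4 and 5 were among the 9. With the Gapdh difference as a covariate 5 genes were called, and of the 9 these held Pdlim4, Cpe and Scn3a.

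For the 9 called genes the sign was the same at both stages and the 3 arrays of one line did not overlap the 3 of the other at either stage. Since the fit over both stages favours such genes, this is a description of the calls. Of all genes, 51.9% had the same sign at both stages, and 1.84% (335 genes) were without overlap in the same direction at both, 1.07% (194) higher and 0.775% (141) lower in MDA-LM2. The reverse pattern, without overlap at both stages but in opposite directions, held for 287 genes (1.58%). The stages share no arrays, and across genes, which are not independent replicates, their line differences had a Pearson correlation of 0.01 and a Spearman correlation of 0.03. The 9 called genes and the genes of the interaction test described further on are plotted with all genes by their difference at each stage.

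**Figure D1:**
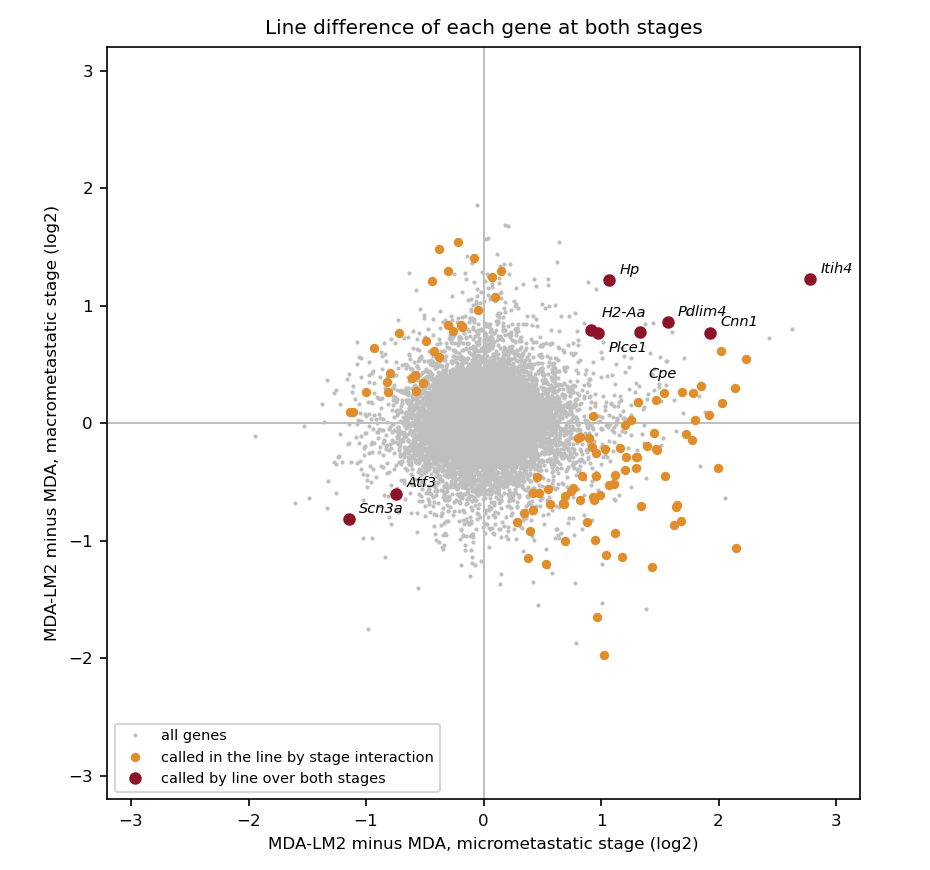
Difference between MDA-LM2 and MDA (log2) at the micrometastatic stage (x axis) and at the macrometastatic stage (y axis) for each of 18194 genes, with the 9 genes called by line in dark red and the 103 genes called in the line by stage interaction in orange. The cloud of all genes shows no slope (Pearson correlation 0.01), the 9 genes lie in the corners of shared sign, and most orange genes lie to the lower right.

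Promoters are shown for the 2 called genes of largest difference and for the lower gene that had one in the RefSeq table (build GRCm38.p6, 250 bases before to 50 after the start, each read 5′ to 3′ on the strand of the gene), so that the motifs counted afterwards can be seen. Of the 9 called genes 6 had a promoter there. Capitals mark E-boxes (CANNTG) in the promoters of Itih4 (chr14:30886226-30886525, plus strand), Cnn1 (chr9:22099003-22099302, plus strand) and Atf3 (chr1:191183284-191183583, minus strand).
Itih4: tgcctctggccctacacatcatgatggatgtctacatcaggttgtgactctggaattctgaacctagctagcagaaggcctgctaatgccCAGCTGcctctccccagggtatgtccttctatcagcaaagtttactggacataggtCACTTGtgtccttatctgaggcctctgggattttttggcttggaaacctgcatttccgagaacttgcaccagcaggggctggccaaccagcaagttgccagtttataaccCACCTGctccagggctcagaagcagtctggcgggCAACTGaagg
Cnn1: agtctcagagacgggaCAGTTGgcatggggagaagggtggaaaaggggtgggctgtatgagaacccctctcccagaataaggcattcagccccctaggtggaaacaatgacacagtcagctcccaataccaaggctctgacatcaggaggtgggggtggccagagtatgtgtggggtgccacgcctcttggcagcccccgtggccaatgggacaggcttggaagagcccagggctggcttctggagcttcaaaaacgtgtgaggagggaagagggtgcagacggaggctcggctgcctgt
Atf3: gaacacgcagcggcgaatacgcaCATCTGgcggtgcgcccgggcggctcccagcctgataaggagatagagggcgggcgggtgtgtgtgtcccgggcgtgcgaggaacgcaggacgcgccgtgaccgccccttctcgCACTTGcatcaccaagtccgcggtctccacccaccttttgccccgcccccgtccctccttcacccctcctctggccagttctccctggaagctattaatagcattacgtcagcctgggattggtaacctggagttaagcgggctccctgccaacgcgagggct
Itih4 held 4 E-boxes, Cnn1 1 and Atf3 2. E-boxes were present in 5 of the 6 promoters of called genes and in 75% of 27025 genes with a promoter. None of the 6 held a CArG box, an interferon response core (TTTC, any 2 bases, TTTC) or an AP-1 site (TGANTCA), which were in 1.81%, 3.99% and 8.97% of all genes with a promoter. Both strands were searched for exact matches only, so a CArG box that departs by 1 base was not counted. The absence of a match says only that these letters are not in this window.

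Acute-phase proteins are plasma proteins that are made mainly by the liver during inflammation, and 2 of the 7 higher genes encode such proteins. Itih4, the heavy chain 4 of the inter-alpha-trypsin inhibitor family, stood at 9.43, 9.19 and 10.26 in MDA micro and at 12.52, 12.23 and 12.49 in MDA-LM2 micro. At the macro stage it stood at 8.73, 8.08 and 8.52 in MDA and at 9.73, 9.69 and 9.58 in MDA-LM2. Its highest values were on the 3 MDA-LM2 micro arrays, and the healthy arrays (8.93, 8.73 and 10.20) lay below all of them. Over both stages Itih4 was higher by 2.0 ± 0.28 (SE, 6 against 6 arrays, limma adjusted p = 0.046), by 2.78 at the micro and 1.22 at the macro stage.

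Hp encodes haptoglobin, which binds free haemoglobin. Its values were 7.71, 7.83 and 7.94 in MDA micro against 9.01, 9.22 and 8.44 in MDA-LM2 micro, and 9.41, 10.29 and 9.71 in MDA macro against 11.32, 10.72 and 11.02 in MDA-LM2 macro. The lines were apart at both stages, and in each line every macro array lay above every micro array. Hp was higher in MDA-LM2 by 1.14 ± 0.17 (adjusted p = 0.046), with 1.07 at the micro and 1.22 at the macro stage. The healthy arrays spread widely (10.54, 7.84 and 7.58), so that 1 of them exceeded every micro array. Erythroid and platelet markers, given beside this haemoglobin-binding gene, summed to 1030 to 1200 in MDA and 1047 to 1357 in MDA-LM2 at the micro stage, and to 1630 to 1750 and 1998 to 2498, without overlap, at the macro stage. Their part in the Hp result was not tested.

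The contractile protein calponin is encoded by Cnn1, which binds actin in smooth muscle cells and myofibroblasts. Cnn1 stood at 9.93, 10.18 and 10.32 in MDA micro and at 12.04, 11.98 and 12.18 in MDA-LM2 micro. The macro values were 9.85, 9.60 and 9.22 in MDA and 10.22, 10.61 and 10.16 in MDA-LM2. The gap was wide at week 1 and narrow at week 3, where the closest arrays were 9.85 and 10.16. Cnn1 was higher by 1.35 ± 0.20 over both stages (adjusted p = 0.047), with 1.92 at the micro and 0.77 at the macro stage, and the healthy arrays (9.08, 9.12 and 10.26) lay below all MDA-LM2 micro arrays.

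Pdlim4 encodes a PDZ and LIM domain protein that binds alpha-actinin on actin fibres. It stood at 8.39, 8.25 and 8.96 in MDA micro against 10.06, 10.18 and 10.06 in MDA-LM2 micro, and at 8.48, 9.02 and 8.28 in MDA macro against 9.40, 9.53 and 9.42 in MDA-LM2 macro. All MDA-LM2 arrays lay above all MDA arrays whatever the stage. The difference was 1.21 ± 0.17 (adjusted p = 0.046), and the healthy arrays (9.17, 8.81 and 9.51) lay below all MDA-LM2 micro arrays and reached from the MDA micro range upwards.

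Enzymes made up another pair of the higher genes. Cpe, carboxypeptidase E, which trims precursors of peptide hormones, stood at 10.03, 9.82 and 10.29 in MDA micro and 11.58, 11.16 and 11.38 in MDA-LM2 micro. Its macro values were 11.08, 11.27 and 10.65 in MDA and 11.83, 11.76 and 11.73 in MDA-LM2. Each stage separated the lines, and the difference was 1.05 ± 0.14 (adjusted p = 0.046). Plce1, phospholipase C epsilon, an effector of Ras proteins, stood at 9.0, 9.12 and 9.42 in MDA micro, 9.81, 10.24 and 10.39 in MDA-LM2 micro, 9.27, 9.54 and 9.04 in MDA macro and 10.18, 10.08 and 9.89 in MDA-LM2 macro. As for Pdlim4, all MDA-LM2 arrays exceeded all MDA arrays, by 0.87 ± 0.13 on average (adjusted p = 0.046). A dim second probe set of Cpe (mean level 5.72, against 10.96 for the one used) differed by 0.06.

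H2-Aa encodes the alpha chain of a class II MHC molecule, which presents peptides to CD4 T cells and is known best from macrophages, dendritic cells and B cells. Its mean level in MDA-LM2 (8.00) was below the median of all genes (8.12). The values were 6.44, 6.83 and 6.73 in MDA micro, 7.54, 7.95 and 7.26 in MDA-LM2 micro, 7.37, 7.65 and 7.82 in MDA macro and 8.29, 8.39 and 8.53 in MDA-LM2 macro. The lines were apart at each stage by 0.92 and 0.79, and by 0.86 ± 0.13 over both (adjusted p = 0.046). The probe set used can match more than 1 transcript. The other 3 probe sets of H2-Aa differed by 0.74, 0.33 and 0.01, the last at a mean level of 5.39. Of the 7 measured class II genes, all 7 had a positive difference (median 0.34, against 0.02 and 55.5% positive over all genes), and 1 passed the test. H2-Ab1, the beta chain partner, named after its values were seen, differed by 0.66 ± 0.16 (adjusted p = 0.19) and Ciita, the coactivator of class II genes, by 0.34 ± 0.14 (adjusted p = 0.42). Beside this, 19 macrophage and monocyte markers had a median difference of 0.004, 10 positive and 9 negative. Their summed level was 1981 to 2854 in MDA and 2137 to 2652 in MDA-LM2 at the micro stage. At the macro stage it was 5304 to 5390 and 4986 to 6455, overlapping both times. Of these markers 1, Fcgr3, was higher without overlap at both stages (0.75, with 0.50 and 1.01), as were 1.07% of all genes. There was no separate list of dendritic cell markers, and the part of such cells in the H2-Aa result was not tested.

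Scn3a, an alpha subunit of voltage-gated sodium channels and a marker of alveolar fibroblasts on the list used here, was lower in MDA-LM2. It stood at 10.92, 10.99 and 10.65 in MDA micro against 9.79, 9.50 and 9.84 in MDA-LM2 micro, and at 8.08, 8.26 and 8.65 in MDA macro against 7.42, 7.39 and 7.73 in MDA-LM2 macro. The lines did not overlap at either stage, and both lay lower at week 3 than at week 1. Scn3a fell by 0.98 ± 0.12 in MDA-LM2 against MDA (adjusted p = 0.046), and all healthy arrays (10.28, 10.47 and 9.47) lay below the MDA micro arrays. A dimmer probe set of Scn3a (mean level 6.79) had differences of -0.74 at the micro and -0.12 at the macro stage.

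Atf3, a transcription factor that is switched on within minutes to hours of cell stress, was the other lower gene. Its values were 9.45, 9.20 and 9.34 in MDA micro, 8.87, 8.27 and 8.60 in MDA-LM2 micro, 10.80, 10.91 and 10.70 in MDA macro and 10.26, 10.27 and 10.09 in MDA-LM2 macro. The gap was of like size at both stages (-0.74 and -0.60), in opposite positions around the healthy arrays (9.69, 9.94 and 9.96), which lay above both lines at week 1 and below both at week 3. Atf3 fell by 0.67 ± 0.10 (adjusted p = 0.048), and neither Atf3 nor H2-Aa kept its call in any of the 12 fits that left out an array.

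**Figure D2:**
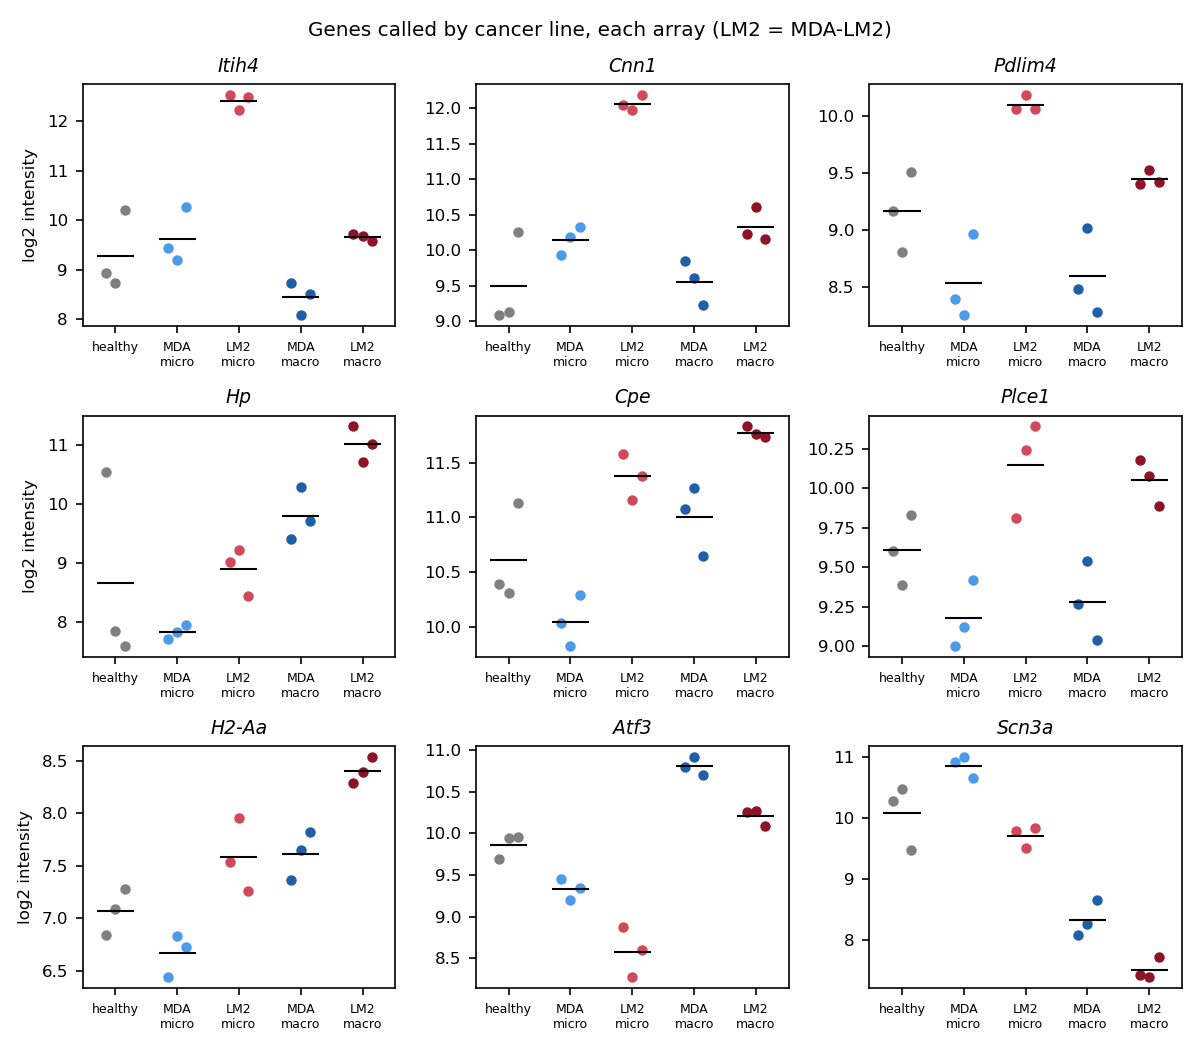
Log2 intensity of the 9 genes called by line on each of 15 arrays, in 5 groups of 3, with a bar at the group mean. In each panel the MDA-LM2 arrays lie on one side of the MDA arrays of the same stage, above them for 7 genes and below them for Atf3 and Scn3a.

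Next in order of p stood 24 genes with an adjusted p from 0.056 to 0.060, 19 higher and 5 lower, of which 23 did not overlap at either stage. They were chosen after their values were seen and did not pass. The 4-group model called all 24, but it used the same arrays and was itself chosen after the data were seen. Its calls are therefore no separate support for these genes. Among the 24 were Actc1, the cardiac alpha-actin, with 1.03 ± 0.17, and Stac, an adapter protein, with 1.31 ± 0.23. Actc1 stood at 11.29, 11.12 and 11.50 in MDA micro against 12.72, 12.94 and 12.76 in MDA-LM2 micro, and at 8.98, 8.81 and 9.09 in MDA macro against 9.58, 9.20 and 9.76 in MDA-LM2 macro. The lines were apart at both stages, at levels that differed far more between the stages. Its promoter (chr2:114052826-114053125, minus strand) held 1 CArG box, in capitals, with its first base at -47.
Actc1: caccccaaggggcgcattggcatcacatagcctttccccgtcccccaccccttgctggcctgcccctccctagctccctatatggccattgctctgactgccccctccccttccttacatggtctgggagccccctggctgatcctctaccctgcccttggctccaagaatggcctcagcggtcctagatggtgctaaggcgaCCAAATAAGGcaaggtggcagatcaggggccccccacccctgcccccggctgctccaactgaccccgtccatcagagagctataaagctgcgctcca
Of 11 smooth muscle markers with a promoter, 0 held an exact CArG match in this window. Near matches were not counted, such as ccctatatgg in the promoters of Actc1 and of the marker Acta2. The count does not show that these promoters lack sites of serum response factor.

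Matrix and growth factor genes also stood among these 24. Vcan, the large proteoglycan versican, differed by 0.54 ± 0.09 (its 7 other probe sets by 0.07 to 0.71), with values of 10.77 to 10.97 in MDA micro, 11.34 to 11.45 in MDA-LM2 micro, 11.54 to 12.02 in MDA macro and 12.18 to 12.36 in MDA-LM2 macro. P4ha3, a subunit of the enzyme that hydroxylates collagen prolines, differed by 0.80 ± 0.13, and Mdk, the heparin-binding growth factor midkine, by 0.45 ± 0.08. With the probe sets used, each of these genes separated the lines at both stages, as 23 of the 24 did, and the fit over both stages favours such genes. A Vcan probe set of like level (11.53, against 11.54) differed by 0.02 at the micro and 0.86 at the macro stage. Those at 11.01 and 10.95 differed by 0.28 and 0.76 at the micro and by 0.75 and 0.65 at the macro stage. Saa3, serum amyloid A3, also an acute-phase gene, differed by 1.15 ± 0.19, with 9.22 to 9.71 against 10.60 to 11.10 at the micro stage and 11.34 to 12.46 against 12.81 to 12.87 at the macro stage. Smad6, which inhibits BMP signalling, differed by 0.76 ± 0.14, and Id2, a helix-loop-helix protein induced by BMP, by 0.64 ± 0.12. On the lower side, Tnfaip6, a hyaluronan-binding protein, stood at -0.75 ± 0.13, Nuak1, a kinase related to AMPK, at -0.72 ± 0.13, and Hs3st3a1, which sulfates heparan sulfate, at -0.99 ± 0.17. Tnfaip6 was the 1 gene of the 24 whose lines overlapped, at the micro stage.

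At the micrometastatic stage alone, 75 genes (0.412%) were called, 62 higher and 13 lower in MDA-LM2, and the macrometastatic arrays offered a separate reading of them. Of the 62 higher genes, 37 (59.7%) also had a positive difference at the macro stage, against 56.8% of all genes. At the macro stage 18 of the 62 (29.0%) were higher in MDA-LM2 without overlap, against 9.72% of all genes, and 11 (17.7%) were lower without overlap, against 6.43%. Their median difference was 1.44 at the micro stage and 0.15 at the macro stage. Both shares without overlap were above those of all genes, which was not tested. Of the 13 lower genes, 6 (46.2%) had a negative difference at the macro stage, against 43.2% of all genes. At that stage 2 (15.4%) were lower without overlap (Scn3a and Nuak1), against 6.43% of all genes. Higher without overlap was 1 (7.69%), against 9.72%. The median difference of the 13 was -1.05 at the micro and 0.03 at the macro stage. The 18 genes above both times included Itih4, Cnn1, Pdlim4 and Cpe. At the macro stage alone 2 genes (0.011%) were called, Tmie and Sema5b, a semaphorin, both lower in MDA-LM2. For Tmie the difference was -1.97, against -0.25 and -1.04 with its other probe sets. Without MDA micro replicate 3 the micro count was 33, without MDA-LM2 micro replicate 2 it was 14, and without any other micro array it was 0, and the macro count was 0 whichever macro array was left out.

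The test of the difference itself, the line by stage interaction, called 103 genes (0.566%). Of these, 86 had opposite signs at the 2 stages, 61 of them higher in MDA-LM2 at the micro and lower at the macro stage and 25 the reverse. The remaining 17 had one sign at both. None of the 9 genes called by line was among the 103. The count ran from 44 to 112 as single arrays were left out.

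Genes of opposite sign were led by Map3k7cl, at 7.26, 6.81 and 7.38 in MDA micro and 9.11, 9.20 and 9.58 in MDA-LM2 micro, then 9.05, 8.37 and 8.17 in MDA macro and 7.19, 7.41 and 7.79 in MDA-LM2 macro. The order of the lines was reversed without overlap, and MDA micro and MDA-LM2 macro overlapped the healthy arrays (7.01, 7.15 and 7.41). Its interaction, the macro minus the micro difference, was -3.22 (adjusted p = 0.003). Tmie, a membrane protein needed for mechanical sensing in inner ear hair cells, stood at 8.11, 7.44 and 8.31 against 8.86, 8.88 and 9.19 at the micro stage and at 9.56, 9.57 and 9.71 against 7.73, 7.41 and 7.77 at the macro stage, an interaction of -3.00 (adjusted p = 0.001). The probe set used for Tmie can match more than 1 transcript, and the other 2 probe sets had smaller differences, 0.43 and -0.25 for one and 0.97 and -1.04 for the other at the micro and macro stage. Parm1, a mucin-like membrane protein, had differences of 1.43 and -1.23 (interaction -2.66, adjusted p = 0.008). Hey2, a transcriptional repressor that Notch induces, had 0.97 and -1.65 (interaction -2.62, adjusted p = 0.011), and its MDA-LM2 macro arrays (7.78, 7.32 and 8.67) lay below all other metastasis arrays.

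In the 4 interaction genes of one sign with the largest interaction, the line difference was smaller at week 3 than at week 1. Scube3, a secreted protein with EGF-like domains, stood at 8.67, 8.42 and 8.71 in MDA micro against 10.81, 10.67 and 10.76 in MDA-LM2 micro, and at 8.54, 8.41 and 8.35 against 8.65, 8.87 and 8.68 at the macro stage. The lines were apart at both stages, but by 2.14 and then 0.30 (interaction -1.84, adjusted p = 0.001). Hspb6, a small heat shock protein of muscle, had differences of 2.03 and 0.17 (interaction -1.85, adjusted p = 0.022), Pcp4l1 had 1.92 and 0.06 (interaction -1.86, adjusted p = 0.005), and P2rx1, an ATP-gated channel of smooth muscle and platelets, had 1.80 and 0.03 (interaction -1.77, adjusted p = 0.016). In these last 3 genes the lines overlapped at week 3.

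**Figure D3:**
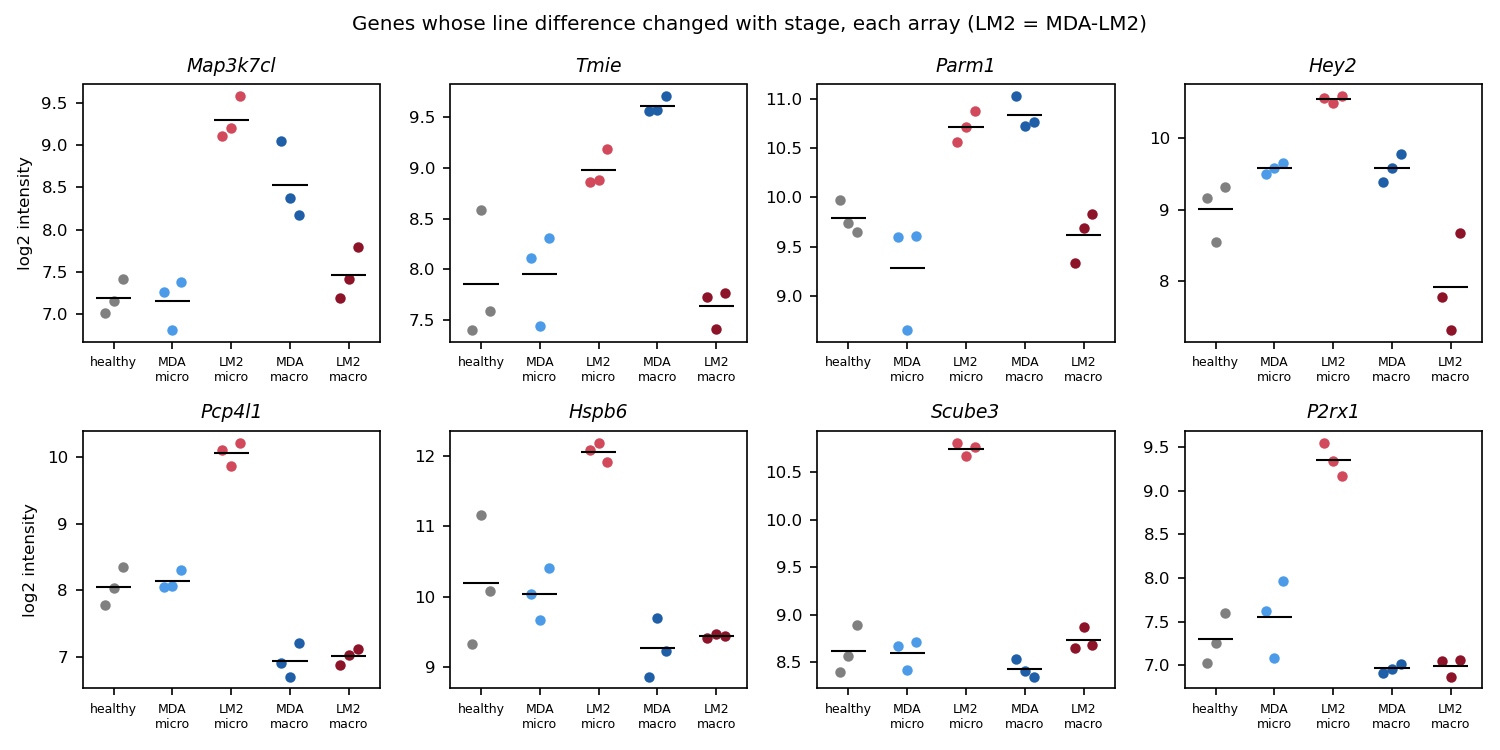
Log2 intensity on each of 15 arrays of 4 genes whose line difference had opposite signs at the stages (top row) and 4 whose difference had one sign (bottom row), with a bar at the mean of each group of 3. In the top row the higher line switches from MDA-LM2 at the micro stage to MDA at the macro stage, and in the bottom row the 3 MDA-LM2 micro arrays stand above all others.

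Smooth muscle markers were mostly higher in MDA-LM2 at week 1 and not at week 3. Of 16 measured, 1 was called by line over both stages (Cnn1) and 8 in the interaction, and the median difference was 0.61 over both stages, 1.31 at the micro and 0.01 at the macro stage, against 0.02, 0.01 and 0.03 over all genes. At the micro stage 14 of 16 were positive and 9 were called higher, and at the macro stage 8 of 16 were positive. Of all 18194 genes, 9448 were positive and 62 called higher at the micro stage, and 10326 (56.8%) were positive at the macro stage. The interaction called 0.566% of all genes. The summed intensity was 36113 to 41092 in MDA micro and 70174 to 71576 in MDA-LM2 micro, whereas MDA macro (38477 to 44319) and MDA-LM2 macro (39164 to 41869) overlapped, all beside 31113 to 36460 in healthy lungs. Myocd, the coactivator myocardin, stood at 9.01, 8.32 and 9.33 against 10.95, 10.71 and 10.97 at the micro stage and at 9.31, 9.28 and 9.37 against 9.16, 8.71 and 8.93 at the macro stage. The lines were apart both times in opposite directions (1.99 and -0.38, interaction -2.37, adjusted p = 0.008). Kcnmb1, the beta subunit of a calcium-activated potassium channel that relaxes smooth muscle, did the same (1.65 and -0.70, interaction -2.34, adjusted p = 0.001). Acta2, the smooth muscle alpha-actin, was at 12.72 to 12.83 against 13.57 to 13.59 at the micro stage and at 13.23 to 13.56 against 13.19 to 13.28 at the macro stage (interaction -0.93, adjusted p = 0.022). The other 2 probe sets of Acta2, at mean levels of 7.94 and 8.90, had differences of 1.71 and 1.73 at the micro stage and of -0.03 and -0.87 at the macro stage. Lmod1, Sh3bgr, Actg2, Hspb6 and Des were the other members called in the interaction. Of 11 ductal and alveolar myofibroblast markers 0 were called by line (median 0.29), and their extreme members were Lgr6, a receptor of R-spondins, with 1.09 ± 0.30 and Actg2, the enteric smooth muscle actin, with 1.02 ± 0.25. Of 27 other contractile genes 0 were called by line (median 0.13, with 0.39 at the micro and -0.06 at the macro stage). The 4-group model, chosen after the data were seen, called 5 of these 27 and 7 of the 16 smooth muscle markers. Mrvi1, a target of cGMP kinase in smooth muscle, stood at 1.04 ± 0.19 and Pdlim3, a relative of Pdlim4, at 0.91 ± 0.18, and both separated the lines at each stage.

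Pericyte markers were mostly higher in MDA-LM2 at the micro stage and lower at the macro stage. Of 19 measured, 0 were called by line and 5 in the interaction, 17 were positive at the micro stage and 0 at the macro stage, and the medians were 0.55 and -0.60. Of all 18194 genes, 9448 were positive at the micro and 10326 at the macro stage, and 0.566% were called in the interaction. Rgs5, a regulator of G protein signalling known from pericytes, was at 9.74 to 10.24 against 11.26 to 11.99 at the micro stage and at 11.74 to 12.12 against 10.80 to 11.49 at the macro stage (interaction -2.35, adjusted p = 0.009). Mcam, an adhesion molecule of mural and endothelial cells, was at 9.08 to 9.46 against 10.24 to 10.67 and at 10.07 to 10.29 against 8.87 to 9.21 (interaction -2.32, adjusted p = 0.001). Both genes reversed without overlap. Notch3 (-2.16, adjusted p = 0.033), Cspg4, the proteoglycan NG2 (-1.56, adjusted p = 0.030), and Heyl, a Notch target (-1.11, adjusted p = 0.022), were the other called interaction members. Of 13 Notch genes 0 were called by line and 4 in the interaction (Hey2, Notch3, Hey1 and Heyl), with medians of 0.39 and -0.38. Notch1, another receptor of the family, had the largest line value of the list, -0.56 ± 0.14 (adjusted p = 0.19), but its other probe set, at a mean level of 9.16, differed by 0.03. The summed pericyte markers were 31183 to 39927 against 43284 to 56106 at the micro stage and 45563 to 50809 against 30224 to 38089 at the macro stage, without overlap both times.

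**Figure D4:**
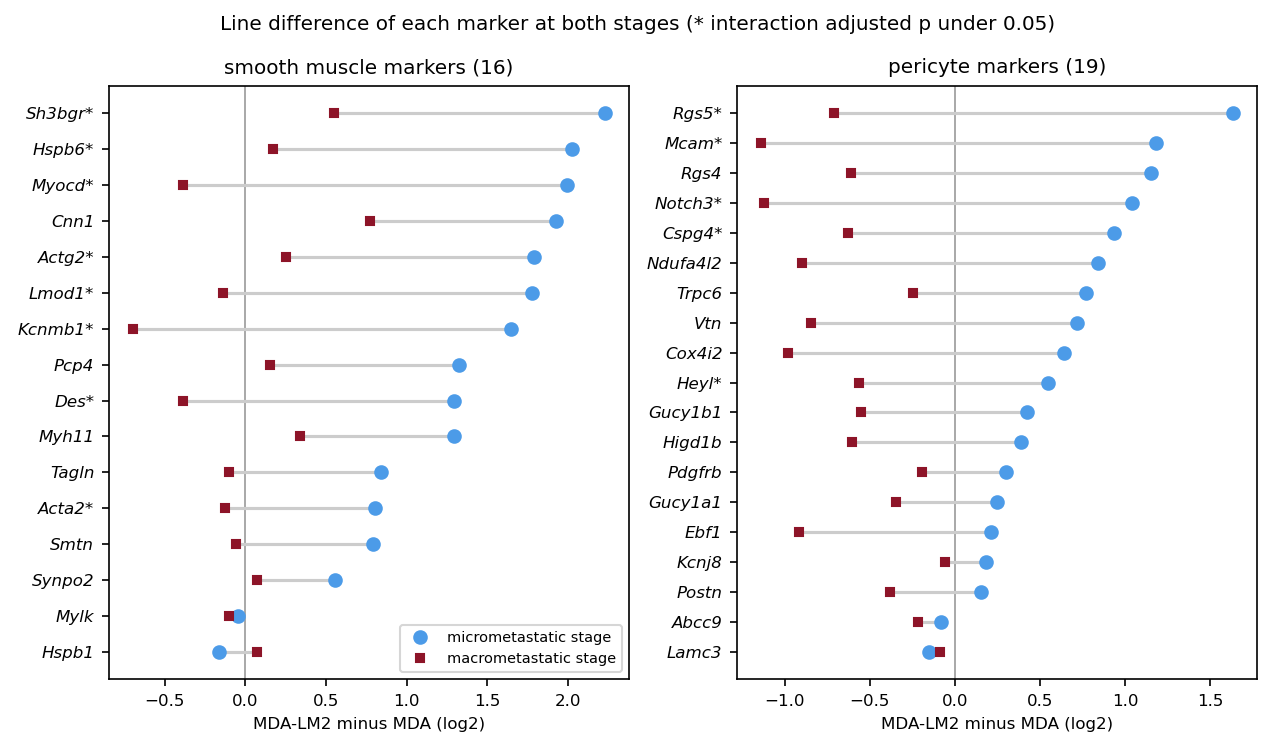
Difference between MDA-LM2 and MDA (log2) of each smooth muscle marker (left, 16 genes) and pericyte marker (right, 19 genes) at the micrometastatic stage (circles) and the macrometastatic stage (squares), with an asterisk on genes called in the line by stage interaction. Smooth muscle markers move from a median of 1.31 to 0.01, and pericyte markers from 0.55 to -0.60.

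Alveolar fibroblast markers and immediate early genes had small negative medians at both stages. Of 19 alveolar fibroblast markers, 18 had a negative line difference (median -0.21, with -0.23 at the micro and -0.16 at the macro stage), 14 were negative at both stages, and Scn3a was called. Their summed level was 110029 to 115404 against 92881 to 98106 at the micro stage, without overlap, and 57161 to 67752 against 52864 to 62584 at the macro stage, with overlap. Both lines had lower sums at week 3 than at week 1. Of 25 immediate early genes, the group to which Atf3 belongs, 23 had a negative difference (median -0.16), 16 were negative at both stages, and 1 was called. Atf3 and Nr4a1, an orphan nuclear receptor with -0.34 ± 0.08 (named after its values were seen), were the 2 members without overlap at both stages. Over all 18194 genes 44.5% of differences were negative, 3930 genes were negative at both stages, and 0.775% were lower without overlap at both. Of 15 mesothelial markers 15 were positive and 0 were called, with medians of 0.03 at the micro and 0.91 at the macro stage, so the list differed mostly at week 3. Lrrn4, a membrane protein of mesothelium, had the largest line value, 1.00 ± 0.20 (adjusted p = 0.089). Of 12 fibroblast identity genes 0 were called (median 0.01), and the median was 0.05 at the micro and -0.02 at the macro stage.

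**Figure D5:**
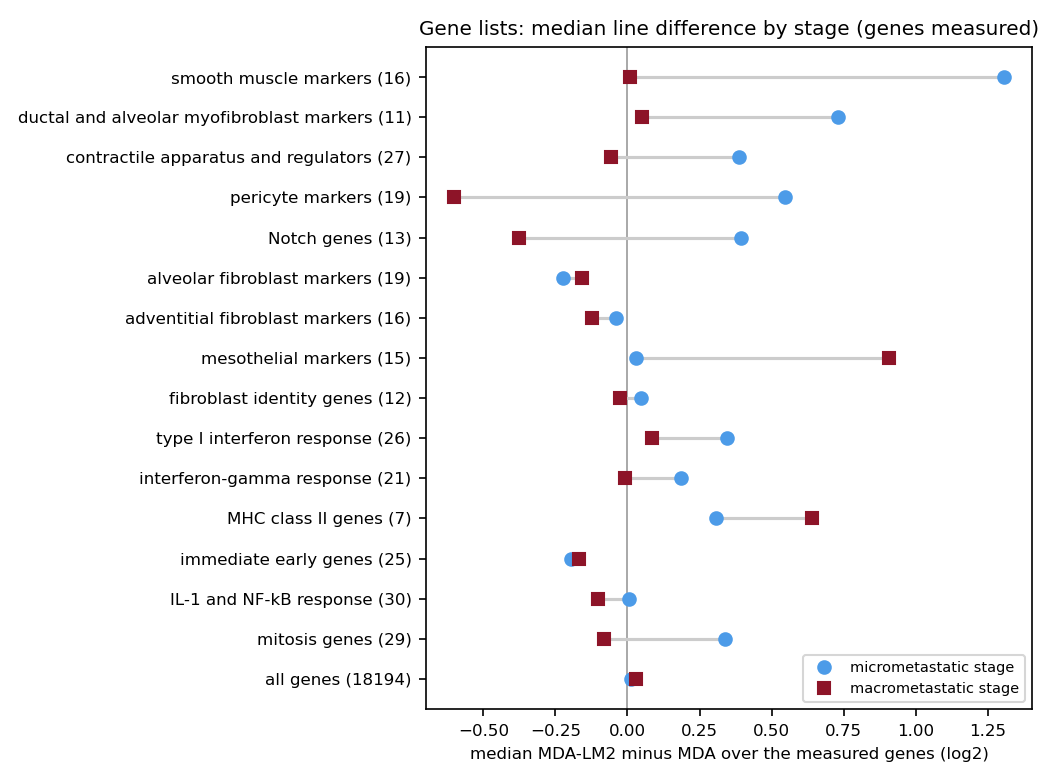
Median difference between MDA-LM2 and MDA (log2) over the measured genes of 15 lists and of all 18194 genes, at the micrometastatic stage (circles) and the macrometastatic stage (squares), with the number of genes in parentheses. Contractile, pericyte and Notch lists differ between stages, mesothelial markers are highest at the macro stage, and alveolar fibroblast markers and immediate early genes are slightly negative at both.

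No interferon or inflammatory list had a gene called by line. Of 26 type I interferon response genes 22 had a positive difference, against 55.5% of all genes, and 0 were called (median 0.19, 0.35 at the micro and 0.09 at the macro stage). Ifit1, which binds viral RNA, stood at 0.54 ± 0.15 (adjusted p = 0.21) and Zbp1, a sensor of nucleic acids, at 0.45 ± 0.13 (adjusted p = 0.22). Of 21 interferon-gamma response genes 0 were called (median 0.12). Of 30 genes of the IL-1 and NF-kB response 0 were called (median -0.06), with Saa3 at the upper end and Birc3, an inhibitor of apoptosis, at -0.65 ± 0.12 (adjusted p = 0.075) at the lower. Birc3 separated the lines at both stages, but its dimmer probe set (mean level 7.87) differed by -0.05.

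Neither of the CXCR3 ligands Cxcl9 and Cxcl10, chemokines that draw T and NK cells, was called. Cxcl9 stood at 7.37, 6.99 and 7.44 in MDA micro, 8.61, 8.37 and 8.10 in MDA-LM2 micro, 9.61, 9.98 and 9.46 in MDA macro and 9.42, 9.76 and 9.71 in MDA-LM2 macro, above 5.92 to 6.05 in healthy lungs. The lines were apart at the micro stage and overlapped at the macro stage (0.52 ± 0.21 over both, adjusted p = 0.40, 95% interval from 0.07 to 0.97). Cxcl10 stood at 9.53 to 10.78 against 10.92 to 11.34 and at 12.82 to 13.07 against 12.32 to 12.72, apart at both stages in opposite directions (0.27 ± 0.26, adjusted p = 0.75). Their interactions, -1.15 (adjusted p = 0.079) and -1.37 (adjusted p = 0.13), did not pass either.

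The genes of the sort gate, Tnc, Fn1, Il1r1 and Thbs2 were not called. The intervals (95%), given for all of these but Thbs2, bound differences over both stages, not those at each stage. Pdgfra differed by -0.15 ± 0.09 (interval from -0.35 to 0.05) and Pdgfrb by 0.05 ± 0.10 (interval from -0.16 to 0.26). By stage, Pdgfra differed by -0.35 at the micro and 0.05 at the macro stage. Its other probe sets gave -0.60 and -0.72 at the micro and 0.10 each at the macro stage. Pdgfrb differed by 0.30 at the micro and -0.20 at the macro stage, and its other probe set by 0.53 and -0.56. The matrix gene Tnc, tenascin C, differed by 0.09 ± 0.08 (interval from -0.09 to 0.27), and Fn1, fibronectin, by -0.01 ± 0.06 (interval from -0.14 to 0.13). A dimmer probe set of Tnc (mean level 7.31, against 11.73 for the one used) differed by 0.22 at the micro and -1.05 at the macro stage. Il1r1, the receptor of IL-1, differed by 0.02 ± 0.08 (interval from -0.15 to 0.19). Thbs2, thrombospondin 2, differed by 0.52 ± 0.23 (adjusted p = 0.45), its lines overlapping at both stages. By stage the difference was 0.98 at the micro and 0.06 at the macro stage. A Thbs2 probe set of like level (9.85, against 9.86) differed by 0.20, with 0.35 at the micro and 0.06 at the macro stage. A dim probe set (6.66) differed by 0.11.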

How the data were processed

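Lung fibroblast RNA was amplified and hybridised to Affymetrix whole-genome mouse arrays, 3 per group. The authors normalised the arrays by RMA and deposited linear intensity values; how they were returned to the linear scale is not given in the sources used here. Each deposited intensity was taken to log2. Of 45100 probe sets, 34957 had 1 gene symbol, 932 several and 9211 none; for each of 18194 genes the 1 probe set brightest on average across the 15 arrays stood for it. Differences were fitted with limma 3.58.1 (lmFit, eBayes) in R 4.3.3 on 12 arrays with stage as covariate, on 6 arrays within each stage, and with an interaction, with Benjamini-Hochberg adjustment over all genes. Functions were checked on simulated data. Depth has no equivalent on arrays, where the number of arrays limits the precision. Each array held 1 to 3 mice, so p-values measure the spread between such pools.

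The members and gene lists were chosen with earlier results of these data known. Genes named were, among those called by line with one sign, no overlap at either stage and a higher-line mean at or above the median, the 14 highest and 12 lowest; up to 5 called members of each list described, or up to 2 of largest change; 4 interaction genes of each kind; and 10 genes of the study. Others are said to have been named after their values were seen, and H2-Aa enters as a called list member. Alternatives were a replicate block, 15 arrays, quantile normalization, centring, a level filter, the mean of probe sets, probe sets without suffix, Gapdh as covariate, no stage covariate, array weights, trended and robust variance, leaving out each array and, chosen after seeing the data, 4 group means.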

Additional observations from a re-analysis of the deposited data

Results flagged for a closer look

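The line difference was tested for change between stages, and 103 genes passed (limma interaction, adjusted p under 0.05). Given here are the 4 of each kind with the largest interaction, beside Myocd and Acta2, which were named in any case; other called genes stand in the report. Those with opposite signs at the stages had interactions of -3.22 (Map3k7cl), -3.00 (Tmie), -2.66 (Parm1), -2.62 (Hey2), -2.37 (Myocd) and -0.928 (Acta2), the macro minus the micro difference in log2. Those with one sign had -1.86 (Pcp4l1), -1.85 (Hspb6), -1.84 (Scube3) and -1.77 (P2rx1). In each of these 10 genes MDA-LM2 stood above MDA without overlap at the micro stage, and no cause was tested.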

How the results depend on the processing

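Over both stages, 9 genes were called by line, all of one sign. The count was 0 with a replicate block, with probe sets without suffix and without the stage covariate, 4 with array weights, 5 with Gapdh as covariate, 20 with trended and robust variance, 30 among genes at or above the median level, 49 with the mean of probe sets, 105 with 4 group means (99 of one sign), 108 with 15 arrays (99 of one sign), and from 0 to 7 without one array, for the count of one sign too. The 75 micro calls became 0 with the replicate block, 46 with probe sets without suffix, 122 with the mean of probe sets, 231 with 15 arrays and 0 to 33 without one array. The 2 macro calls became 0 with the block and with probe sets without suffix, 15 at or above the median level, 21 with the mean of probe sets, 64 with 15 arrays and 0 without any one macro array. The 103 interaction calls became 188 with the mean of probe sets and 44 to 112 without one array. Quantile normalization and centring kept each count within 1.5 times. At an unadjusted p under 0.05 the block left 1840 genes by line.

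The labels do not say whether replicate numbers pair the arrays. Same-numbered arrays of the 2 lines had correlations of their deviations from -0.06 to 0.04, and other pairs from -0.10 to 0.10. With 3 arrays per group these values cannot decide whether the arrays were paired. With the replicate block 0 genes were called by line. Of 141 named genes, 15 had a line difference of the other sign under at least 1 alternative, none of them called by line. With the mean of probe sets these were Parm1 (-0.00996), Tnc (-0.16), Il1r1 (-0.015) and Col5a3 (-0.12). With Gapdh as covariate they were Il1r1 (-0.0035), Fn1 (0.018), Heyl (0.064), Pf4 (-0.13), Col18a1 (0.0049) and Cry1 (0.125). With array weights they were Parm1 (-0.040), Mcam (-0.11) and Col5a3 (-0.045), with probe sets without suffix Pdgfrb (-0.018) and Fabp4 (-0.083), and with centring Col5a3 (-5.37e-05). As single arrays were left out, differences of both signs occurred for Parm1 (-0.19 to 0.31), Il1r1 (-0.016 to 0.068), Fn1 (-0.019 to 0.018), Mustn1 (-0.030 to 0.18), Mcam (-0.16 to 0.19), Notch3 (-0.27 to 0.19), Cspg4 (-0.031 to 0.28), Heyl (-0.099 to 0.098) and Col5a3 (-0.16 to 0.15). The 9 genes called by line held their sign throughout, with adjusted p up to 0.983 without the stage covariate.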

Other observations

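Of the 335 genes without overlap in one direction at both stages, 24 differed at least 2-fold, 19 higher and 5 lower, and 5 of the 24 were called; the following were named after their values were seen. Higher genes that were not called included Timp4, an inhibitor of metalloproteinases, with 1.57 ± 0.33 (limma adjusted p = 0.10). Another was Fabp4, a carrier of fatty acids, with 1.33 ± 0.28 (adjusted p = 0.11). The next brightest probe set of Fabp4 differed by 1.18, and its dim probe sets without suffix differed by -0.083 and 0.14. Plin4, which coats lipid droplets, had 1.08 ± 0.25 (adjusted p = 0.15), with 1.85 at the micro and 0.31 at the macro stage. Fabp4, Plin4 and Lpl, lipoprotein lipase (0.31 ± 0.09), were the 3 of 14 lipofibroblast genes without overlap at both stages, in a list with a median of 0.10. Over all genes 1.07% were higher in MDA-LM2 without overlap at both stages. Of the 14, 9 were positive and 5 negative, with medians of -0.003 at the micro and 0.16 at the macro stage. Lower genes included Ang, the ribonuclease angiogenin, with -1.14 ± 0.32 (adjusted p = 0.22), and Lsamp, a neural adhesion protein, with -1.0 ± 0.27 (adjusted p = 0.21).

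The healthy mean lay between the means of the lines at the micro stage for 6 of the 9 called genes and for 61.8% of the 335 genes, against 34.8% of all genes. At the macro stage it did so for 3 of the 9 and for 21.2%, against 16.3% of all genes. The 9 and the 335 are genes whose lines stand apart, which leaves a healthy mean more room to fall between them. All genes are therefore not a like comparison, and these shares only describe. Of 29 mitosis genes 0 were called by line, with medians of 0.34 at the micro and -0.08 at the macro stage. Of 20 genes of cholesterol and fatty acid synthesis 0 were called, with medians of -0.14 and 0.17.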
